A study of Homo sapiens with 12 samples.

Results

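Pairs of alternative 3' splice sites that lie exactly 3 nucleotides apart were examined in RNA of AsPC-1, an established human pancreatic cancer cell line. The members were all alternative 3' splice site events in the deposited event table whose 2 forms differ in exon length by 3 nucleotides and whose 2 splice junctions together held a mean of at least 20 reads per library. This rule took 1269 of the 12007 events, or 13.5% of the 9378 events that passed the read minimum. The 1269 events use 1211 different acceptor pairs in 1044 genes, because 54 acceptor pairs are reached from 2 or more upstream exons. In addition, 142 genes hold 2 or more pairs. Before the read minimum there were 1604 such events. The members nearest above the minimum lay in CD44 and MYBL1 (20 reads each) and SCML1 (20.1), and the pairs nearest below it in ZNF431 (19.8), SLC35A3 (19.7) and USP24 (19.6).

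The study set out to follow isoforms that depend on HIF, the hypoxia-inducible transcription factor, which needs the protein ARNT as its partner. AsPC-1 cells received either an siRNA that targets ARNT (siARNT) or a scrambled one (siControl), and on the next day each well was divided between normoxia (21% O2) and hypoxia (1% O2 for 24 h). Polyadenylated RNA was taken 48 h after transfection, with 3 libraries, A to C, in each of the 4 groups: normoxia siControl, hypoxia siControl, normoxia siARNT and hypoxia siARNT. Every group had thus received siRNA, and all libraries came from 1 cell line, so p-values measure the spread between wells of that line.

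The 3' splice site is the end of an intron and carries the bases AG. In the second step of splicing the spliceosome cuts behind an AG that follows the branch point and the pyrimidine tract, after U2AF and SF1 have marked that region. Where 2 AGs stand 3 bases apart, in the order NAGNAG, either can be used: cutting behind the first gives the long form, which keeps the second triplet in the mRNA, and cutting behind the second gives the short form, which lacks it. The reading frame downstream is the same in both forms, so in coding sequence the choice adds or removes 1 amino acid, or exchanges amino acids at the junction.

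Acceptors of 15 pairs show this arrangement, and they were chosen because together they cover the order of preference described further on. For each combination of the base before the first and before the second AG that could be read from a GENCODE 29 transcript (GRCh38), the pair with the most reads outside untranslated regions is given (pairs of 1 chromosome were not used here), with its long-form share as the mean of 12 libraries. Where several upstream exons reach a pair, the share is that of the event with the most reads. Each line holds 12 intronic bases, the tandem triplets in capitals, and 12 exonic bases. CCL20, which encodes a chemokine, was added after its values had been seen, because its forms were used about equally and its share varied more between groups than that of most pairs.
ACADVL, chr17:7223798-7223827, plus strand, 99.1% long form: gttctttgtcccTAGGAGgcagcctggaag
PSMD4, chr1:151265379-151265408, plus strand, 99.9% long form: ttctttcctcccCAGGAGgtgaacacagaa
NAP1L1, chr12:76056147-76056176, minus strand, 94.8% long form: tgtcacttaatcAAGGAGgaattgaaagaa
PTMA, chr2:231711872-231711901, plus strand, 8.78% long form: ctgttttctgtcGAGGAGaatgaggaaaat
RPS25, chr11:119017531-119017560, minus strand, 98.6% long form: tgttttggtgagCAGAAGtggtccaaaggc
ARPC3, chr12:110436190-110436219, minus strand, 98.3% long form: attgttctgtttTAGAAGtgatgagagcct
MACROH2A1, chr5:135360593-135360622, minus strand, 44.4% long form: ttccgtctgtgcAAGAAGaagcagggtgaa
SUCO, chr1:172608732-172608761, plus strand, 97.0% long form: tttttttacttaCAGTAGacccaaatgatt
METTL9, chr16:21655212-21655241, plus strand, 66.6% long form: tcttatttgtatTAGTAGgtggcaagtggg
ZNF282, chr7:149212340-149212369, plus strand, 10.2% long form: tcttgttcccgcAAGTAGactccccaattt
RPL11, chr1:23692594-23692623, plus strand, 87.1% long form: tcttccctgttgCAGCAGgatcaaggtgaa
PCBP2, chr12:53468762-53468791, plus strand, 90.03% long form: tcttctgtctttTAGCAGgtttggatgcat
CCL20, chr2:227815439-227815468, plus strand, 50.9% long form: ttttttttttttTAGCAGcaagcaactttg
SERPINE2, chr2:223980386-223980415, minus strand, 15.8% long form: tttattttctggAAGCAGggtcagaaaacc
MYL6, chr12:56158666-56158695, plus strand, 0.0909% long form: tccctcttctctGAGCAGtgtgacttcacc

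In SERPINE2 (AAGCAG) and MYL6 (GAGCAG) the long form was the minor one, though over all 27 AAGCAG pairs its share ran from 0.93% to 96.2%. MYL6, a myosin light chain gene, gave a mean of 0.0909% long form, and at most 0.235% in any library. The long form was nearly the only one in PSMD4 (CAGGAG), a proteasome subunit gene, and ACADVL (TAGGAG), a mitochondrial fatty acid oxidation gene. A clear mixture was found at AAGAAG in MACROH2A1, a histone variant gene, where the long form took 40.3% to 48.4% in the 12 libraries, and at TAGTAG in METTL9, a histidine methyltransferase gene, where it took 64.0% to 68.9%.

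The libraries held 38525512 to 84337166 reads counted to genes, and 341414 to 725049 junction reads on the tandem pairs. A member had a median of 123 reads per library over both junctions, against 156 for the other alternative 3' splice site events, and 718 members had a mean of at least 100. ARNT, the targeted gene, lay at 60.7 to 72.2 CPM in the siControl libraries and at 12.8 to 16.0 in the siARNT libraries. CPM are gene counts scaled to the library's total as adjusted by TMM. The epithelial markers EPCAM (794 to 1037 CPM), CDH1 (154 to 242) and KRT8 (1182 to 3459) were high in every library, while those of immune cells (PTPRC, at most 0.0937), fibroblasts (COL1A1, at most 0.195), islets (INS, 0) and acinar cells (PRSS1, at most 0.0215) were at or near 0. VIM, which had been listed as not expected, was present at 1485 to 2322 CPM. The library normoxia siARNT B stood apart, with 1018 CPM of KRT19, the highest of the 12 libraries. Hypoxia siARNT C (699) and hypoxia siControl B (569) had the highest KRT19 of their groups. The shift was not limited to keratins. PUF60, a gene of 3' splice site recognition, lay at 100 CPM in normoxia siARNT B, against 49.3 and 49.4 in A and C of that group. ALDOA lay at 622 against 276 and 285, while SF3B1 was lower, at 680 against 786 and 773.

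In 11 libraries 38 to 50 members had no read of the minor form although at least 5 were expected from the other libraries, and in the library hypoxia siARNT A this held for 10. Such members, called on-off here, numbered 147 of 1269 (11.6%), against 1604 of the other events (19.8%). They came to 138 pairs, of which 135 (97.8%) lacked an annotated transcript for one of the forms, against 49.7% of the remaining pairs. KRT8, a keratin of simple epithelia, was listed with 0 short-form reads among 10167 in hypoxia siControl B, while its long form took 93.1% to 95.3% in the other 11 libraries. RPS25, a ribosomal protein gene, had 95.1%, 95.4% and 100% long form in normoxia siControl, 100%, 96.5% and 100% in hypoxia siControl, 100%, 99.99% and 95.6% in normoxia siARNT, and 100% in each hypoxia siARNT library. The change between a few percent and none thus ran across libraries of the same group. Of the 25 pairs whose minor form was seen in 1 library only, 21 had it in hypoxia siARNT A, among them PSMD4, PTCD3 (a mitochondrial ribosome gene) and PLS3 (an actin-bundling protein gene). Whether a 0 in such a library means that no read was there, or that the junction was not reported for it, cannot be told from the files, so no upper limit on the share is given for these zeros. What sets them was not tested. The edgeR calls, the counts at an unadjusted p, the intervals and the medians by triplet are also given without on-off members. Counts and medians of differences in share, counts of groups that did not overlap, and shares by distance are given only with on-off members included. PSMD4, PTCD3 and PLS3 did not meet the on-off rule, because fewer than 5 minor-form reads were expected in each library. Such pairs therefore stay in the results without on-off events.

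**Figure D1:**
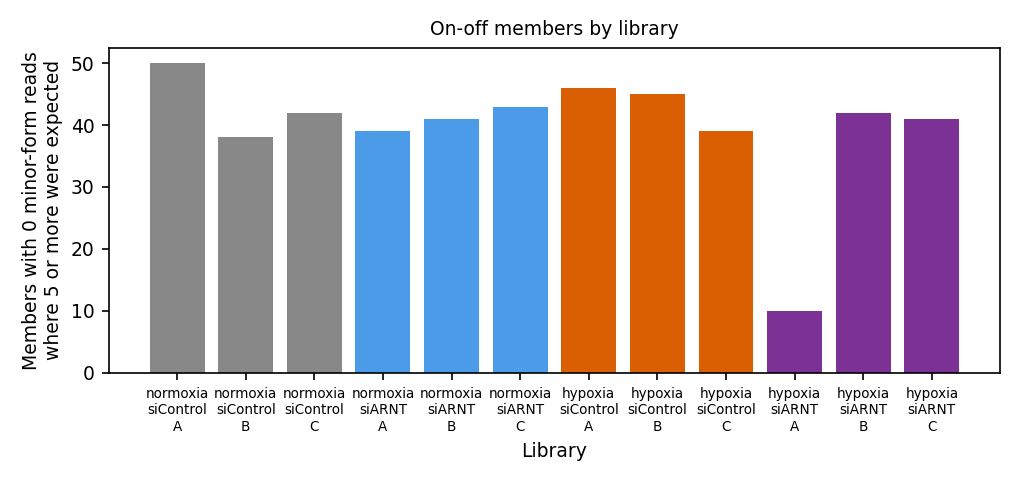
Number of tandem pair members (vertical axis) with no read of the minor form where at least 5 were expected, for each of the 12 libraries (horizontal axis, bars). Bars reach 38 to 50 in 11 libraries and 10 in hypoxia siARNT A.

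Among all alternative 3' splice sites, a distance of 3 nucleotides was the most frequent. Of the events that passed the read minimum, 1269 had a distance of 3 nucleotides, 584 of 4 and 209 of 2. The minor form also had a larger median share at this distance. The minor form, whichever it was, had a median share of 8.75% over the 1211 pairs, with quartiles of 2.87% and 23.3%. At the other distances from 2 to 15 nucleotides the medians lay between 0.879% and 3.73%. The minor form reached at least 10% in 566 of the 1211 pairs (46.7%), against 8.66% of pairs 4 nucleotides apart, 12.5% of pairs 5 apart, 10.2% of pairs 6 apart, 9.26% of pairs 9 apart and 20.2% of pairs 12 apart. Distances of 6, 9 and 12 nucleotides also keep the reading frame. These are descriptions of junction shares, since the distance was what chose the members.

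**Figure D2:**
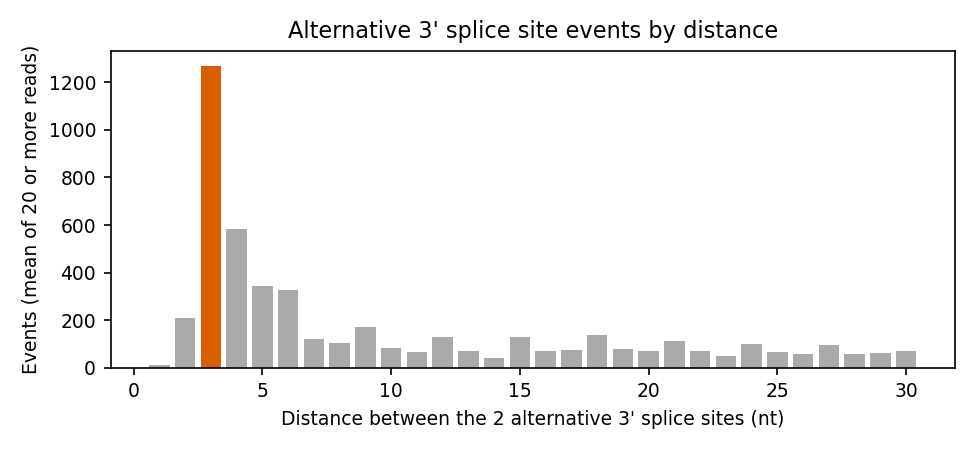
Number of alternative 3' splice site events that passed the read minimum (vertical axis) by the distance between the acceptors in nucleotides (horizontal axis), with 3 nucleotides in orange. The bar at 3 nucleotides holds 1269 events, against 584 at 4 nucleotides.

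**Figure D3:**
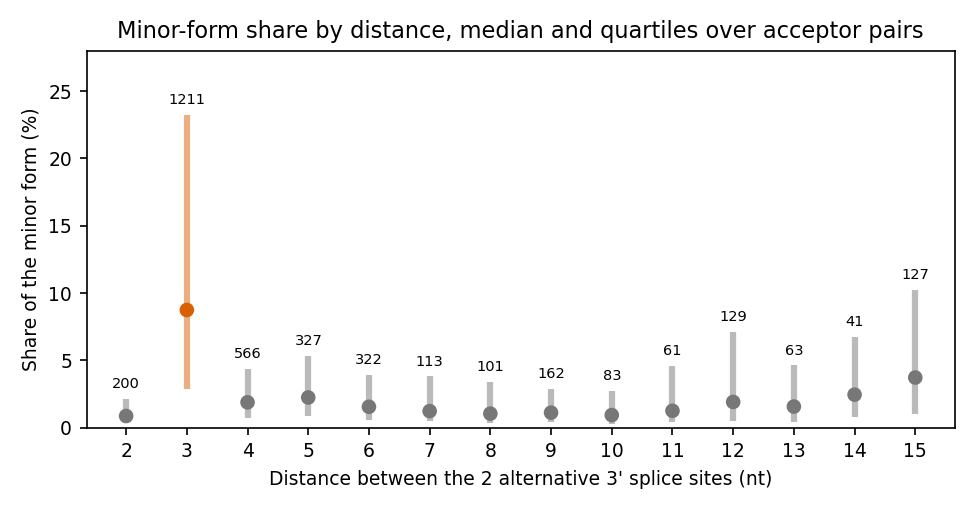
Share of the minor form in percent (vertical axis) by the distance between the acceptors in nucleotides (horizontal axis), as the median with quartiles over pairs, and with the number of pairs above. The median at 3 nucleotides is 8.75%, and at other distances it does not pass 3.73%.

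The long form was the major one in 965 of the 1211 pairs (79.7%). Its share had a median of 88.8%, with quartiles of 62.0% and 97.0%. It was above 90% in 579 pairs and under 10% in 66, and in 110 pairs the minor form stayed under 1%. Nearest to equal use, among pairs with at least 100 reads, were RALGAPB, which encodes a subunit of a Ral GTPase activator (50.3%), CDC27, which encodes a subunit of the anaphase-promoting complex (50.4%), and ADPGK, which encodes a glucokinase that uses ADP (49.6%). The shares differed little between the 4 groups. Over the 706 pairs with at least 100 reads, the group means of a pair spanned a median of 1.97 percentage points, where libraries of 1 group had a median SD of 1.37 points, and 611 pairs (86.5%) spanned less than 5 points.

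The reference annotation held both forms of 543 pairs, whose long form had a median share of 72.1%. For 530 pairs it held only the long form, which took a median of 96.4%, and for 75 only the short form, where the long form took a median of 12.9%. Where 1 form was annotated, that form was the major one in 588 of 605 pairs (97.2%). Neither form could be matched for 37 pairs, 17 could not be assigned, and 9 lay in genes not in the annotation used here. By position, 1055 pairs lay in coding sequence, 53 in a 5' UTR, 21 in a 3' UTR and 19 in non-coding transcripts. The minor form was read in all 12 libraries for 777 pairs (64.2%). That share was 86.2% where both forms were annotated and 47.3% where 1 was.

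The 3 extra bases of the long form were read from the annotated transcripts for 1099 pairs, and they were NAG, any base and then AG, in 1094 (99.5%). The bases before the first splice point, which are intronic, could be read for 272 pairs and were NAG in 267. The base before the second AG went with how much of the short form was made. With GAG as the extra triplet (132 pairs) the long form took a median of 98.7%, with AAG (341 pairs) 96.3%, with TAG (103 pairs) 82.5% and with CAG (518 pairs) 71.6%. The quartiles were 97.7% and 99.3% for GAG, 91.6% and 98.3% for AAG, 63.4% and 93.1% for TAG, and 42.8% and 88.7% for CAG. The minor form reached 10% in 6 of the GAG pairs (4.55%), 72 of the AAG pairs (21.1%), 60 of the TAG pairs (58.3%) and 366 of the CAG pairs (70.7%). The short form was the major one in 157 CAG pairs (30.3%) and in 2 GAG pairs. The medians stood in the order GAG, AAG, TAG and CAG in 12 of 12 libraries, though the pairs are the same in each library and are not replicates of it.

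The order was also seen in subsets. Where both forms were annotated the medians were 96.7%, 90.7%, 72.3% and 64.4% for GAG, AAG, TAG and CAG. Without on-off pairs they were 99.0%, 96.0%, 81.5% and 71.4%, and over pairs with at least 100 reads 98.9%, 97.0%, 86.4% and 82.2%. For 277 of 1072 pairs (25.8%) the last 3 bases of the upstream exon equal the extra triplet. Reads there cannot tell the short acceptor from a donor site moved by 3 bases. This limit also covers, among others, the results given for MACROH2A1, RALGAPB, ADPGK, KDM3A, ARNT, RPS25, KRT8, PSMD4, EML4 and CBFB. It holds as well for the ASPH pair with a mean of 97.6% long form, the DDX46 pair with 95.6% and the SF3B2 pair with 86.8%. The minor form had a median of 11.1% in the 277 pairs and 7.55% in the rest. Without the 277 pairs the medians by triplet were 98.7%, 96.4%, 84.7% and 76.4%. The medians lay close together in the 4 groups. For CAG the group medians were 72.0% in normoxia siControl, 71.4% in hypoxia siControl, 73.2% in normoxia siARNT, and 71.7% in hypoxia siARNT. For GAG they were 98.9%, 99.2%, 98.8% and 98.3% in the same order.

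The base before the first AG went with the share as well, in the pairs where it could be read. With CAG as the second triplet, the long form took a median of 67.2% at CAGCAG (79 pairs), 76.7% at TAGCAG (34 pairs), 19.4% at AAGCAG (27 pairs) and 2.48% at GAGCAG (4 pairs). With AAG as the second triplet, it took 95.3% at CAGAAG (39 pairs), 94.1% at TAGAAG (21 pairs) and 53.5% at AAGAAG (5 pairs). With GAG as the second triplet, it took 97.8% at CAGGAG (15 pairs), 99.1% at TAGGAG (9 pairs), 99.2% at AAGGAG (6 pairs) and 52.3% at GAGGAG (2 pairs). PTMA is 1 of these last pairs. The intronic base is known only where some annotated transcript keeps the bases, so these 272 pairs are not a sample of all pairs.

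In coding sequence the extra triplet can be a codon of its own or be split between codons. It was a codon in 75 of 129 GAG pairs (58.1%), where it encodes glutamate, 113 of 316 AAG pairs (35.8%), where it encodes lysine, and 186 of 478 CAG pairs (38.9%), where it encodes glutamine. TAG, which as a codon is a stop, was split in all 82 coding pairs, 48 in one way and 34 in the other. Where the long form is annotated this was fixed in advance, because an annotated coding sequence cannot hold TAG as a codon. In 3 pairs the coding sequence of the long form ended just before the TAG, so that the triplet was counted as 3' UTR and the TAG is the stop codon of that form. The long form was rare in all 3, with a mean of 3.80% in MKLN1, a gene for a subunit of a ubiquitin ligase complex, 5.04% in TIMM44, of mitochondrial protein import, and 5.98% in SCO1, of cytochrome oxidase assembly. Their long-form mRNAs (GRCh38), with 15 bases of the upstream exon, the TAG in capitals and 12 bases downstream, read as follows.
MKLN1: aactggtatagcaagTAGtaccgtgaacag
TIMM44: ggcaccgtgaaggagTAGagccttcacgaa
SCO1: ccctcgaagcccgggTAGcctgtttcctgg

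Shares were also compared where 1 acceptor pair is reached from several upstream exons. Over the 54 such pairs, the spread between events had a median of 6.43 percentage points and was under 10 in 31. Different pairs of the same gene were farther apart, with a median spread of 16.5 points over 142 genes and 58 under 10. GNAS, which encodes the stimulatory G protein subunit, was the pair with the widest spread, with 10.3% long form from one upstream exon and 69.1% from another.

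Hypoxia in the control cells was compared first, to ask whether low oxygen moves the choice between the acceptors. No member passed an adjusted p of 0.05 (edgeR quasi-likelihood test, Benjamini-Hochberg over 9378 events), where 0.0% of all events were called. At an unadjusted p under 0.05 there were 34 members (2.68%), against 3.09% of all events. The long-form share differed by a median of -0.01 points over members, and the median size of the difference was 1.41 points, against 0.990 for all events. It exceeded 10 points in 75 members (5.91%), against 5.28% of all events. For 113 members (8.90%) all hypoxia libraries lay above, or all lay below, every normoxia library, against 8.58% of all events, and the long form was the higher in 49 of the 113.

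Hypoxia under siARNT, siARNT in normoxia and siARNT in hypoxia gave the same count of 0 called members by this test, where 0.0107%, 0.0% and 0.0107% of all events were called, and so did the test of whether the hypoxia difference depends on siARNT (0.0%). At an unadjusted p under 0.05 there were 32, 31, 31 and 29 members in these comparisons (2.52%, 2.44%, 2.44% and 2.29%), against 2.42%, 3.82%, 3.57% and 2.89% of all events. The groups did not overlap for 129 members under hypoxia with siARNT (10.2%, against 8.07% of all events), 122 for siARNT in normoxia (9.61%, against 10.4%) and 138 for siARNT in hypoxia (10.9%, against 9.05%). The comparisons share libraries and are not independent of each other.

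Other tools called single members. DESeq2 (Wald test) called PTPRA (adjusted p = 0.0373) and SLC44A1 (0.0299) for siARNT in normoxia, EML4 (0.0175) for siARNT in hypoxia and IGFBP1 (0.011) for the interaction, and no member for hypoxia in either siRNA. It gave an adjusted p for 2106 to 4105 of the events, and of these it called 0.365% for hypoxia in siControl, 0.855% for hypoxia in siARNT, 1.55% for siARNT in normoxia, 1.26% for siARNT in hypoxia and 0.609% for the interaction. Limma on the log2 odds called CBFB (adjusted p = 0.0363) for hypoxia in siARNT (0.0533% of all events) and no member elsewhere (of all events, 0.032% for hypoxia in siControl, 0.0107% for siARNT under normoxia, 0.032% for siARNT under hypoxia and 0.0427% for the interaction). All 5 are on-off members. Leaving out the on-off events, edgeR called 0 of 1122 members in all 5 comparisons (0.0% of 7627 events). At an unadjusted p under 0.05 there were 27, 32, 25, 30 and 21 members (2.41%, 2.85%, 2.23%, 2.67% and 1.87%), against 3.71%, 3.64%, 4.98%, 4.81% and 3.51% of all events in that fit.

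A missed threshold does not show that shares were equal, so the precision matters. Over the 1122 members with a mean of at least 2 reads of each form, the 95% interval of the log2 odds ratio lay within 1 of 0, a doubling or halving of the odds, for 255 members in hypoxia with siControl, 233 in hypoxia with siARNT, 252 for siARNT in normoxia and 225 for siARNT in hypoxia. Without the on-off events, which widen the estimated spread, it did so for 298, 295, 315 and 279 of 975 members. For the remaining members a change of the odds by 2-fold was not excluded in these fits. For the interaction it did so for 30 of the 1122 members, and for 99 of 975 without the on-off events. For PTMA the interval for hypoxia in siControl ran from -2.36 to 2.27 in the fit with all events and from -0.29 to 0.19 without the on-off events, a fit added after seeing the data.

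**Figure D4:**
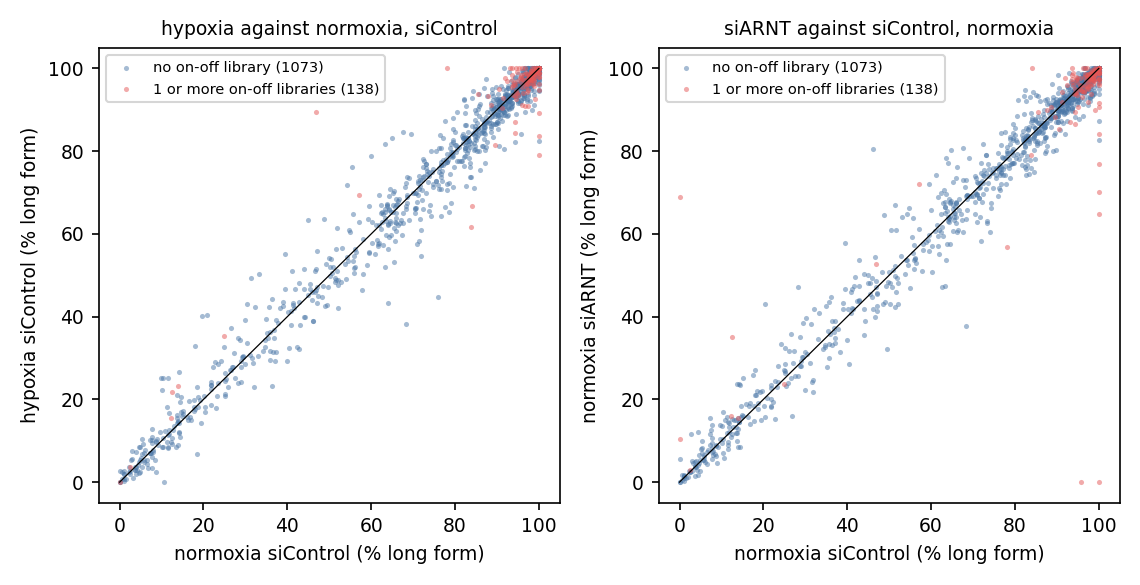
Mean long-form share in percent of each pair in one group against another, for hypoxia (vertical axis) against normoxia (horizontal axis) in siControl, and for siARNT against siControl in normoxia. Each point is 1 pair, with the 138 on-off pairs in red and the other 1073 in blue, and most lie near the diagonal.

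Among the pairs with the most reads, PTMA, which encodes the acidic nuclear protein prothymosin alpha, was a steady mixture. Its long form, which carries 1 glutamate codon more, took 8.8%, 9.7% and 9.1% in normoxia siControl, 8.7%, 9.1% and 8.9% in hypoxia siControl, 8.2%, 8.3% and 8.8% in normoxia siARNT, and 8.8%, 8.5% and 8.5% in hypoxia siARNT. All libraries thus lay close together, with normoxia siControl B the highest. SERPINE2, a secreted protease inhibitor gene, kept its long form between 14.8% and 17.5%. RPL11, a ribosomal protein gene, kept it between 85.7% and 88.7%, PCBP2, an RNA-binding protein gene, between 88.5% and 91.5%, and NAP1L1, a histone chaperone gene, between 93.1% and 96.0%. At the same acceptors of RPL11 and PCBP2, another upstream exon gave means of 98.2% and 78.3% long form. S100A6, a calcium-binding protein gene, stayed at 99.6% to 99.8%. ASPH, an aspartate hydroxylase gene, holds 3 of the 8 pairs with the most reads, with long-form means of 86.0%, 97.8% and 97.6%.

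The widest ranges between group means, among pairs with at least 100 reads, included RPS7, TNKS, EEF1A1 and KDM3A, where on-off libraries set the range. RPS7, a ribosomal protein gene, had 10.6% long form in normoxia siARNT B, no read of either form in hypoxia siControl B and hypoxia siARNT C, and 100% in the other libraries. RPS7, EEF1A1, RPL21 and RPS25 have many processed pseudogenes, which may make their reads uncertain. Whether it does was not tested, here or for other genes with pseudogenes. TNKS, which encodes the poly-ADP-ribose polymerase tankyrase, had 100% long form in all 3 hypoxia siControl libraries and 90.8%, 88.4% and 85.6% in hypoxia siARNT (edgeR quasi-likelihood test, unadjusted p = 0.0035, adjusted p = 0.932).

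Without on-off libraries the widest ranges were those of SENP6, HLTF, CCL20, HUWE1, IGFBP3 and ZZZ3. These are listed by their range, so the ranges themselves are no evidence of a change. The long-form mRNAs of SENP6, HLTF and HUWE1 are shown because the group means of these pairs lay among the farthest apart. Each line has 15 bases of the upstream exon, the extra triplet in capitals and 12 bases downstream, with the position of the triplet in GRCh38.
SENP6, chr6:75640684-75640686, plus strand: aacagcagcccaaagCAGtctggaccgaaa
HLTF, chr3:149059805-149059807, minus strand: aaggcagggcgaaagCAGgatcttctaagg
HUWE1, chrX:53575786-53575788, minus strand: atgctccagaggaagCAGataaatctgatc

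All 3, like CCL20, have CAG as the extra triplet, which is also the most frequent one (518 pairs). ZZZ3, not shown, has TAG. CCL20 is the chemokine that binds CCR6. Its long form took 57.9%, 63.8% and 51.6% in normoxia siControl, 48.7%, 47.3% and 43.4% in hypoxia siControl, 53.6%, 52.3% and 47.3% in normoxia siARNT, and 50.8%, 47.9% and 46.9% in hypoxia siARNT. Every hypoxia siControl library lay lower than every normoxia siControl library, by 11.3 points on average (log2 odds ratio -0.65, 95% interval -1.26 to -0.05). The unadjusted p was 0.0364 and the adjusted p 1 (edgeR quasi-likelihood test). The CCL20 gene as a whole was higher in hypoxia siControl, by 0.70 on the log2 scale (SE 0.11, adjusted p = 0.000805).

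HLTF encodes a DNA translocase with a RING finger that acts at stalled replication forks. Its long form took 75.9%, 74.7% and 70.5% in normoxia siControl, 68.6%, 64.8% and 63.4% in hypoxia siControl, 81.0%, 72.5% and 77.2% in normoxia siARNT, and 66.9%, 68.6% and 80.6% in hypoxia siARNT. The hypoxia siControl libraries again lay under those of normoxia siControl without overlap, with a mean difference of -8.08 points (log2 odds ratio -0.55, 95% interval -1.30 to 0.19, unadjusted p = 0.13, adjusted p = 1 by edgeR), while the hypoxia siARNT libraries overlapped both of these groups.

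SENP6 encodes a protease that removes SUMO chains. Its long form took 52.3%, 54.5% and 49.6% in normoxia siControl, 45.3%, 50% and 47.4% in hypoxia siControl, 50.6%, 43.4% and 35.3% in normoxia siARNT, and 36.5%, 44.6% and 40.0% in hypoxia siARNT. With siARNT it was lower by 9.03 points in normoxia, where the groups overlapped (log2 odds ratio -0.52, 95% interval -1.17 to 0.12, unadjusted p = 0.102, adjusted p = 1 by edgeR). In hypoxia it was lower by 7.17 points, without overlap (unadjusted p = 0.178, adjusted p = 0.932 by edgeR).

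HUWE1 encodes a large ubiquitin ligase. Its long form took 66.7%, 74.7% and 64.0% in normoxia siControl, 69.9%, 75.8% and 75.6% in hypoxia siControl, 67.7%, 71.6% and 69.2% in normoxia siARNT, and 68.0%, 59.3% and 60.5% in hypoxia siARNT. The 3 hypoxia siARNT libraries lay under the 3 hypoxia siControl libraries by 11.2 points (log2 odds ratio -0.74, 95% interval -1.41 to -0.08, unadjusted p = 0.0321, adjusted p = 0.932 by edgeR). IGFBP3, which encodes an insulin-like growth factor binding protein, ranged from 46.5% to 69.8% and ZZZ3, of a histone acetyltransferase complex, from 48.3% to 75.7%, with wide spreads inside groups.

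**Figure D5:**
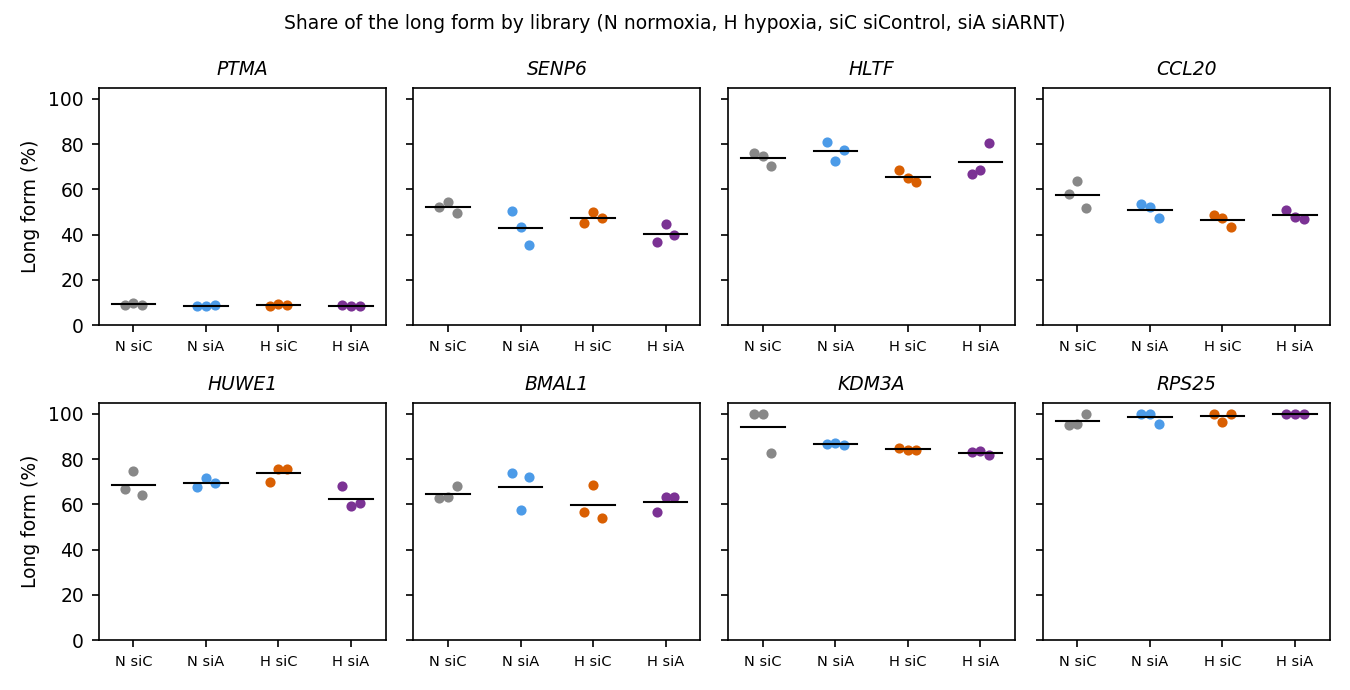
Long-form share in percent (vertical axis) in each library, by group (horizontal axis), for 8 pairs; each point is 1 library and each line a group mean. PTMA stays between 8.2% and 9.7%, CCL20 is lower in each hypoxia siControl library than in any normoxia siControl library, and KDM3A and RPS25 show libraries at 100%.

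Of the genes on the lists of the HIF pathway and HIF targets used here, which do not hold every HIF target, 5 hold members: ARNT, HIF1A, BMAL1, KDM3A and ENO1. The extra triplets of the first 4 are printed because these genes are the subject of the study.
ARNT, chr1:150814237-150814239, minus strand: ggcttttctgcccagCAGgtggctacccag
HIF1A, chr14:61720379-61720381, plus strand: gaacgacaagaaaaaTAGgataagttctga
BMAL1, chr11:13372163-13372165, plus strand: gctcaaagaaaaaagCAGatcgaaaaagct
KDM3A, chr2:86489520-86489522, plus strand: gtgagcaagaagaagAAGtccttaagacca

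KDM3A encodes a histone demethylase and is a known HIF target. Its gene level was higher in hypoxia siControl than in normoxia siControl by 1.49 on the log2 scale (SE 0.08, adjusted p = 4.69e-07 by edgeR). Its long form took 100%, 100% and 82.8% in normoxia siControl, 84.9%, 84.0% and 83.9% in hypoxia siControl, 86.6%, 87.1% and 86.1% in normoxia siARNT, and 83.1%, 83.7% and 81.6% in hypoxia siARNT. Only normoxia siControl A and B stood apart, listed with 0 short-form reads of 296 and 185. Leaving out normoxia siControl C made KDM3A the called member in hypoxia with siControl (adjusted p = 0.00471), siARNT in normoxia (0.00634) and the interaction (0.024), all by edgeR, where it was the single event called of 9378 (0.0107%). With that library KDM3A was called in none of the 3.

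BMAL1, a clock transcription factor of the ARNT family, had 62.7%, 63.2% and 67.9% long form in normoxia siControl, 56.6%, 68.6% and 54.2% in hypoxia siControl, 73.6%, 57.4% and 71.9% in normoxia siARNT, and 56.7%, 63.2% and 63.5% in hypoxia siARNT. The libraries of each group were widely spread, and the groups overlapped. HIF1A, the oxygen-regulated partner of ARNT, was mostly in its short form. Its long form took 26.3%, 31.8% and 21.4% in normoxia siControl, 22.9%, 18.2% and 40.0% in hypoxia siControl, 30.6%, 33.3% and 11.8% in normoxia siARNT, and 24.1%, 13.0% and 9.38% in hypoxia siARNT, and the groups overlapped. ARNT had 50% to 100% long form, from 32, 40 and 37 reads in normoxia siControl, 70, 43 and 35 in hypoxia siControl, 18, 22 and 13 in normoxia siARNT, and 4, 9 and 13 in hypoxia siARNT. The range of ARNT was widest where siRNA had left the fewest reads. ENO1, a glycolytic enzyme gene, has its pair in the 5' UTR and ranged from 94.98% to 98.7%.

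Genes that recognise the 3' splice site also hold tandem pairs. In RBM39, a splicing factor related to U2AF, the long form took means of 97.0% and 96.6% at a single pair reached from 2 upstream exons. It took 99.7% in RBM17, and 99.3% and 95.6% at different pairs of DDX46, a helicase of the U2 particle. SF3B2, of the branch point complex SF3B, held 3 pairs with 98.8%, 86.8% and 97.6%. DDX39B, a helicase that works with U2AF, was near equal use at 53.5%, with 42.2% to 63.0% in single libraries. SNRNP200, the helicase of the U5 particle, showed its short form only in normoxia siControl A, where the long form took 80.9%.

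Because edgeR called no member in any comparison, none could be called among the members in genes whose level changed. Only the sizes of the share differences are therefore compared here. Of the 1205 pairs whose gene was tested, the gene changed at least 2-fold (adjusted p under 0.05 by edgeR) for 10 in hypoxia with siControl (0.83%, against 2.84% of all genes), 7 of them upward (2.26% of all genes). With siARNT in normoxia there were 10 (0.83%, against 2.63%), 4 of them upward (1.78% of all genes), and with siARNT in hypoxia 21 (1.74%, against 4.45%), 6 of them upward (1.62% of all genes). Under hypoxia with siARNT there were 0, where 0.588% of all genes changed 2-fold and 0.465% upward. The size of the share difference had a median of 2.87 points in these pairs in hypoxia with siControl, against 1.39 where the gene was not called, 6.70 against 1.39 for siARNT in normoxia, and 2.54 against 1.58 for siARNT in hypoxia. The pairs in changed genes had fewer reads for siARNT, with a median of 52.5 in normoxia and 68.9 in hypoxia against 129, and how much of the larger spread goes with depth was not tested.

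The genes whose products recognise the branch point and the 3' splice site, a list of 46, were measured in the gene counts. In hypoxia with siControl 1 rose and 8 fell (19.6%, where 25.3% of all genes were called, 10.4% upward and 14.9% downward). With siARNT in normoxia 5 rose and 4 fell (19.6%, against 20.2% of all genes, 9.42% upward and 10.8% downward), and with siARNT in hypoxia 9 rose and 3 fell (26.1%, against 29.1%, 14.4% upward and 14.7% downward). In hypoxia with siARNT 1 rose and 2 fell (6.52%, against 4.09%, 2.21% upward and 1.89% downward), and the interaction was called for RBM5 alone (2.17%, against 4.69%, 2.49% upward and 2.19% downward). The median log2 fold changes of the list were -0.10, 0.17, 0.12 and -0.10 in these 4 comparisons, against 0.02, 0.01, 0.02 and -0.04 over all genes. No called gene of the list changed 2-fold. With siARNT in normoxia SF1, U2AF1, SF3A1, SF3B4 and HNRNPA1 rose and DDX46, PRPF18, SF3B6 and RBM17 fell, and in hypoxia the first 5 rose as well, with RBM5, RBM39 and DDX39B lower. In hypoxia with siARNT RBM5 rose and SRSF2 and PHF5A fell. The counts moved with single libraries. In hypoxia with siControl 15 genes were called without normoxia siARNT B and 14 without hypoxia siARNT C. For siARNT in normoxia 15 were called without normoxia siARNT A, 14 without hypoxia siARNT C, and 3 or 4 without normoxia siControl A, B or C or normoxia siARNT B. For siARNT in hypoxia 7 were called without hypoxia siControl A, hypoxia siControl B or hypoxia siARNT B. For hypoxia with siARNT 0 or 1 was called without any 1 library other than hypoxia siControl B, and for the interaction 0 without any 1 other than hypoxia siControl C.

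SF1, the branch point binding protein, rose with siARNT by 0.38 on the log2 scale in normoxia (adjusted p = 0.00166 by edgeR) and by 0.46 in hypoxia (adjusted p = 0.000192). U2AF1, the subunit of U2AF that contacts the AG, rose by 0.24 in normoxia (adjusted p = 0.0201) and 0.18 in hypoxia (adjusted p = 0.0469), and these calls were kept in 13 and 6 of 17 alternatives. The call in normoxia was lost without normoxia siControl A, B or C or normoxia siARNT B (adjusted p = 0.0553 to 0.115), and the call in hypoxia was lost with no filter on low counts (adjusted p = 0.208) and on leaving out each library in turn except normoxia siARNT B and hypoxia siARNT A (0.057 to 0.17). RBM5, a regulator of 3' splice site choice, rose by 0.49 in hypoxia with siControl (adjusted p = 4.36e-05) and by 0.21 in hypoxia with siARNT (adjusted p = 0.045), a call kept in 3 of 17 alternatives. SF3A3, of the U2 particle, fell by 0.52 in hypoxia with siControl (adjusted p = 0.000375) and SNRPA1, another protein of that particle, fell by 0.45 (adjusted p = 0.00274). DDX46 fell by 0.49 with siARNT in normoxia (adjusted p = 0.00474). PRPF8, the central protein of the U5 particle, rose by 0.30 with siARNT in hypoxia (adjusted p = 0.0301), a call kept in 12 of 17 alternatives and lost without hypoxia siControl A, B or C or hypoxia siARNT B or C (adjusted p = 0.0628 to 0.0995). SLU7, which acts in the second step of splicing, did not pass the test, with -0.27 for siARNT in normoxia (adjusted p = 0.063) and in hypoxia (adjusted p = 0.0501). U2AF2, the subunit of U2AF that binds the pyrimidine tract, had -0.72 for siARNT in hypoxia (adjusted p = 0.0935) and did not pass. SF3B1, the SF3B subunit that holds the branch point, did not pass either, with 0.06 for hypoxia with siControl and -0.15 and -0.02 for siARNT in normoxia and hypoxia. Whether these levels bear on acceptor choice was not tested.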

How the data were processed

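RNA-seq was made from 12 libraries, 3 in each of 4 groups. The submitters' processing notes name Trimmomatic, STAR 2.4.2a and the build GRCh38.p10; the tool that called the splicing events is not given in the sources used here. The authors deposited, per the file headers, read counts of both junctions of each event and their fraction (psi), and read counts per gene. The deposited fraction equalled the share of the first junction within 0.0051, and was missing under 10 reads. It was replaced by the long-form share computed from the counts, since the long form was first in 116 members and second in 1153. Positions in the event file did not match GRCh38 and are not printed. Junctions were matched to GENCODE 29 by gene and intron length, and sequences were taken from those transcripts.

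Members were tested with edgeR 4.0.16 (R 4.3.3; quasi-likelihood, all 12 libraries, terms for library and for junction by group, Benjamini-Hochberg over the 9378 events with a mean of at least 20 reads) at an adjusted p of 0.05. A log2 odds ratio above 0 means more long form. Gene counts were tested with edgeR after TMM scaling and its filter on low counts; 22.7% to 25.2% of the deposited counts lay in lines that name no gene and were left out. CPM were computed from the gene counts with library totals adjusted by TMM. On simulated data made from the hypoxia with siControl comparison (9378 events), the test recovered 26 of 100 events with a log2 odds ratio of 2 and 1 of 100 with 1, with 5 false among 32 calls, and without on-off events (7611 events) 71 and 28, with 5 false among 104. The changed events were drawn from those with a mean of at least 5 expected minor-form reads and no on-off library. The spread between libraries was assumed, so these rates do not cover members with fewer minor-form reads or on-off zeros. For genes (16999), 127 of 200 changed 2-fold were recovered, with 6 false of 133 calls.

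Alternatives were DESeq2 1.42.0, limma 3.58.1 on log2 odds, other read minimums, other scalings, replicate blocks and each library left out. Leaving out on-off events, a dispersion of 0 and both together were added after seeing the data, as were the values of named members under summed reads and without each library. Named members are those called, the 8 pairs with the most reads, the 6 with the widest range of group means among those with at least 100 reads, members of the HIF and recognition lists, the 3 nearest to equal use and the 3 with the lowest minor share, and those next to the read minimum. Added after their values were seen were the pairs with the most reads of each triplet combination, the widest ranges without on-off libraries, pairs called under an alternative, the 3 pairs at a stop codon and GNAS. Of the recognition list, the called genes with the 5 largest changes and U2AF1, U2AF2, SF1, SF3B1, PRPF8 and SLU7 are given with values. Members and lists were chosen with earlier results of these data known.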

Additional observations from a re-analysis of the deposited data

Results flagged for a closer look

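RBM5 was the gene of the 3' splice site recognition list whose response to hypoxia differed between siARNT and siControl by the test of the difference itself. It rose in hypoxia by 0.49 on the log2 scale with siControl and by 0.21 with siARNT, a difference of -0.28 (SE 0.07, adjusted p = 0.0465 by edgeR). The adjusted p lay between 0.0331 (DESeq2) and 0.259 (no filter on low counts) over 17 alternatives, and the call was kept by DESeq2 only.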

How the results depend on the processing

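Of tandem pairs, DESeq2 called 2 for siARNT in normoxia, 1 for siARNT in hypoxia and 1 for the interaction, and limma called 1 for hypoxia in siARNT. Leaving out single libraries gave 0 to 1 called pair in hypoxia with siControl, siARNT in normoxia and the interaction (KDM3A, without normoxia siControl C) and 0 elsewhere. Deviations of samples with the same letter correlated with r from -0.06 to 0.06 for events. For genes r was 0.064 to 0.50 among normoxia siControl, normoxia siARNT and hypoxia siControl, and -0.40 to 0.49 with hypoxia siARNT. Among the comparisons of 1 group with another that were made, none had r over 0.1 for all 3 letters, so the letters were not treated as pairs. Between normoxia siARNT and hypoxia siControl, not compared directly, r for genes was 0.16, 0.50 and 0.25 for A, B and C. Normoxia siARNT B correlated with hypoxia siARNT A and C, of other letters, at -0.61 and 0.60, and the cause was not tested. The labels do not say whether a letter marks a shared well. With a replicate block by letter, or by transfected well where hypoxia was compared, 0 pairs were called. The replicate block moved the recognition genes called for siARNT in normoxia from 9 to 17 and for the interaction from 1 to 0. DESeq2 called 14 of them for siARNT in normoxia, and total counts without TMM 2 for the interaction and 17 for hypoxia in siControl. RLE size factors and no filter on low counts each gave 1 for hypoxia in siARNT and 0 for the interaction. Leaving out single libraries gave 6 to 15 recognition genes for hypoxia in siControl, 0 to 3 for hypoxia in siARNT, 3 to 15 for siARNT in normoxia, 7 to 14 for siARNT in hypoxia and 0 to 1 for the interaction; the cause was not tested. The median long-form share over members (88.8%, 88.7%, 88.1% and 88.2% in normoxia siControl, hypoxia siControl, normoxia siARNT and hypoxia siARNT) was 91.8%, 91.5%, 91.4% and 91.4% with at least 50 reads. With 1 event per acceptor pair it was 88.5% in normoxia siARNT and 89.1% in hypoxia siControl, and with summed reads 87.9% in normoxia siARNT. Leaving out single libraries gave 88.7% to 89.3%, 88.2% to 88.5%, 88.0% to 88.4% and 87.8% to 88.7%, and 88.7% in hypoxia siARNT without library A.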
